A study of Manihot esculenta with 44 samples.

Results

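The leaves of cassava (Manihot esculenta) at the end of a growing season in Bac Kan, a mountainous part of Vietnam, were set against leaves taken there at its beginning. The comparison uses 8 of the 44 RNA sequencing libraries of the series: 4 from 30 October and 4 from 31 May 2019, 152 days apart, chosen by the site and date in the sample titles. All plants were of KU50, a widely grown variety, and were raised in the field from cuttings of lignified stem with a fertilizer of nitrogen, phosphorus and potassium. The plants in Bac Kan flowered, and those in a general field in Hanoi did not. Bac Kan was sampled on 7 dates and Hanoi on 4, with 4 libraries per date. No genotype or treatment separates 30 October from 31 May. Plant age, weather, day length and the hour of sampling, which was not given in the labels, cannot be told apart as differences between the dates. Within a date, libraries are numbered only by their place in the deposited table. The labels do not say whether libraries of 1 date were taken from different plants, so the p-values measure the spread between these libraries, which may be technical.

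The leaf takes part in flowering through FT, a small protein that is made in the phloem of the leaf, travels to the shoot tip and there, with partners, switches on genes such as SOC1, FUL and AP1. Members of the same family, among them TFL1 and BFT, act against it. The leaf is also where photosystems, each a reaction centre with an antenna of chlorophyll-binding proteins, capture light, where starch is stored by day and broken down by night, and from which nitrogen and phosphate are drawn when they run short. Plants low in phosphate are known to secrete acid phosphatases and to replace phospholipids with sulfolipid and galactolipid. The roles named below are those known in Arabidopsis, whose best hit gives each cassava gene its name.

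Levels are deposited FPKM (fragments scaled for transcript length and library size), summed per gene and rescaled to a total of 1000000 per library. They are given for each library or as mean ± SD of 4 libraries, and as a range where a library was listed at 0. Changes are differences of log2(level + 1) ± SE, 30 October minus 31 May, and a gene was called where limma's test gave a Benjamini-Hochberg adjusted p under 0.05 over the 23405 genes tested. Where leaving out 1 library ended a call, that library and the adjusted p without it stand beside the gene. Each date had a table of its own, and nothing states whether the tables were normalized together, so every change is set across tables.

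The 8 libraries fell into their 2 dates: the median correlation across genes was 0.924 within 30 October and 0.931 within 31 May, against 0.869 between the dates. Deposited FPKM summed to 664145 to 705150 on 30 October and 740948 to 777639 on 31 May (exact permutation test, two-sided, p = 0.0286, the smallest that 4 against 4 allows). The 10 most abundant genes took 6.97 to 7.96% of the total on 30 October and 8.67 to 9.17% on 31 May (p = 0.0286, same exact test). Relative depth, estimated from the spacing of low values, was 0.760 to 1.106 on 30 October and 0.928 to 1.403 on 31 May (p = 0.143, same exact test), and read totals are unknown. The sample characteristics gave another date than the titles for 7 of these 8 samples and another site for none. Leaf identity was plain in both dates, with RBCS3B (MANES_01G011500), the small subunit of Rubisco, at 3251 ± 486 on 30 October and 5959.5 ± 406 on 31 May. Of the lists that stand for other tissue, floral organ identity summed to 91.6 to 157 on 30 October and 29.7 to 53.7 on 31 May (p = 0.0286, same exact test), while cell proliferation summed to 7.65 to 24.9 on 30 October and 17.1 to 25.9 on 31 May (p = 0.4, same exact test). Much of the floral organ sum on 30 October came from a single gene, SHP1, given below, and the members AP3 and AG were not called. Secondary wall genes summed to 2.91 to 5.19 on 30 October and 0.828 to 4.87 on 31 May (p = 0.457, same exact test). The part of these markers in the results below was not tested.

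The season moved 6060 of 23405 genes, 25.9% of those tested, of which 3766 (16.1%) were higher on 30 October and 2294 (9.8%) lower. At least 2-fold, 2016 rose and 1449 fell, and at least 8-fold, 89 rose and 73 fell. In 4780 of the called genes the 4 libraries of one date all lay above those of the other, a pattern found in 25% of all genes tested. The share of calls that were higher was 62.1%, with the median of all genes shifted by 0.10. It was 48.8% when libraries were scaled by the median ratio, with a median of -0.005, and 52.4% on the FPKM as deposited, with a median of 0, so the balance of rises and falls over all genes depends on the scaling.

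**Figure D1:**
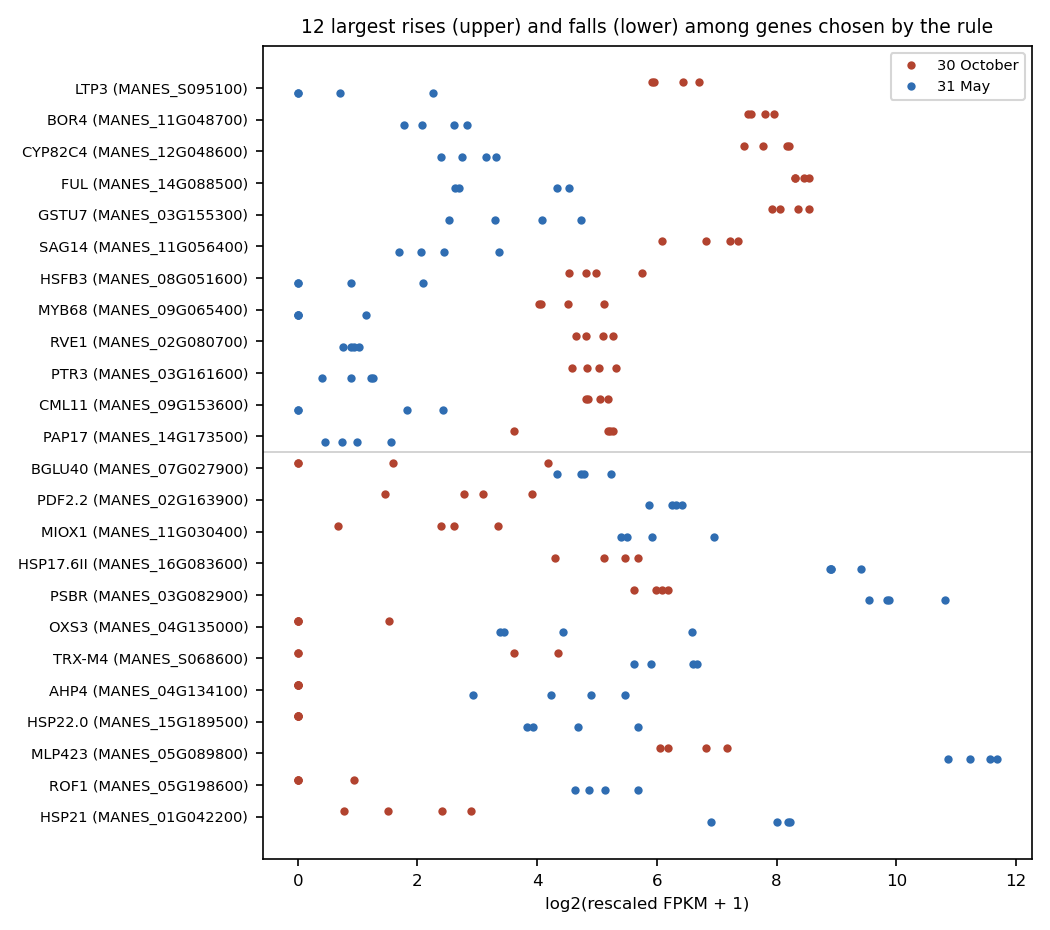
Levels of the 12 largest rises and 12 largest falls among called genes whose best hit carries a symbol in the deposited tables, 1 per best hit, with a mean of 5 or more and no overlap between the dates, as log2(rescaled FPKM + 1) on the horizontal axis, 1 gene per row, with 1 point per library, 30 October in red above 31 May in blue. The separation of the dates in each row was a condition of the choice.

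The largest changes were taken among called genes with a symbol for the best hit in the deposited tables, a mean of 5 or more on the higher date and no overlap between the dates, 1 per best hit. The largest rise was in LTP3 (MANES_S095100), a lipid transfer protein, with levels of 59.4, 103, 85.9 and 60.6 on 30 October, against 0, 0.633, 0 and 3.79 on 31 May (log2 change 5.51 ± 0.54, adjusted p = 2.9e-10). BOR4 (MANES_11G048700), known as a borate exporter, had levels of 246, 223, 189.8 and 182 on 30 October, against 5.12, 6.08, 2.41 and 3.20 on 31 May (log2 change 5.39 ± 0.47, adjusted p = 2.6e-11). CYP82C4 (MANES_12G048600), a cytochrome P450 of the iron-deficiency coumarin pathway, had levels of 175, 289, 293 and 219 on 30 October, against 8.98, 7.86, 5.69 and 4.28 on 31 May (log2 change 5.00 ± 0.51, adjusted p = 7.4e-10). All 3 genes were below 10 in every library of 31 May. The other large rises were in GSTU7 (MANES_03G155300), a glutathione transferase, in SAG14 (MANES_11G056400), a blue copper protein, in HSFB3 (MANES_08G051600), a class B heat shock factor, in MYB68 (MANES_09G065400), a MYB factor, in RVE1 (MANES_02G080700), a morning factor of the clock, in PTR3 (MANES_03G161600), a peptide transporter, in CML11 (MANES_09G153600), a calmodulin-like protein, in PAP17 (MANES_14G173500), a purple acid phosphatase, and in FUL, described below. BFT, whose best hit carries no symbol in the tables, and another copy of FUL, with the same best hit, rose as well (4.54 and 4.70) and are given with the flowering genes. The changes of the 9 genes ran from 3.88 to 4.87.

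By the same rule, several of the largest falls were in chaperones. HSP21 (MANES_01G042200), a small heat shock protein of the plastid, had levels of 4.31, 0.713, 1.86 and 6.42 on 30 October, against 297, 257, 291 and 119 on 31 May (log2 change -5.93 ± 1.01, adjusted p = 1.8e-05). ROF1 (MANES_05G198600), an immunophilin that binds HSP90, had levels of 0.908, 0, 0 and 0 on 30 October, against 28.03, 50.4, 33.9 and 23.8 on 31 May (log2 change -4.84 ± 0.50, adjusted p = 8.7e-10). MLP423 (MANES_05G089800), a latex-protein-like gene, had levels of 65.2, 143, 112 and 72.1 on 30 October, against 3287, 3025, 2399 and 1853 on 31 May (log2 change -4.77 ± 0.50, adjusted p = 1.4e-09). On 30 October HSP21 and ROF1 lay below 10 in every library, and MLP423 was still found. HSP22.0 (MANES_15G189500), a small heat shock protein of the endoplasmic reticulum, and AHP4 (MANES_04G134100), a cytokinin phosphotransfer protein, were listed at 0 in all 4 libraries of 30 October, against 13.3 to 50.4 and 6.60 to 43.2 on 31 May (adjusted p = 3.5e-06 and 4.9e-05). The rest were TRX-M4 (MANES_S068600), a plastid thioredoxin, OXS3 (MANES_04G135000), an oxidative stress gene, PSBR (MANES_03G082900), a subunit of photosystem II, HSP17.6II (MANES_16G083600), a cytosolic small heat shock protein, MIOX1 (MANES_11G030400), which oxidises myo-inositol, PDF2.2 (MANES_02G163900), a defensin, and BGLU40 (MANES_07G027900), a beta-glucosidase. Their changes ran from -4.21 to -3.33.

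**Figure D2:**
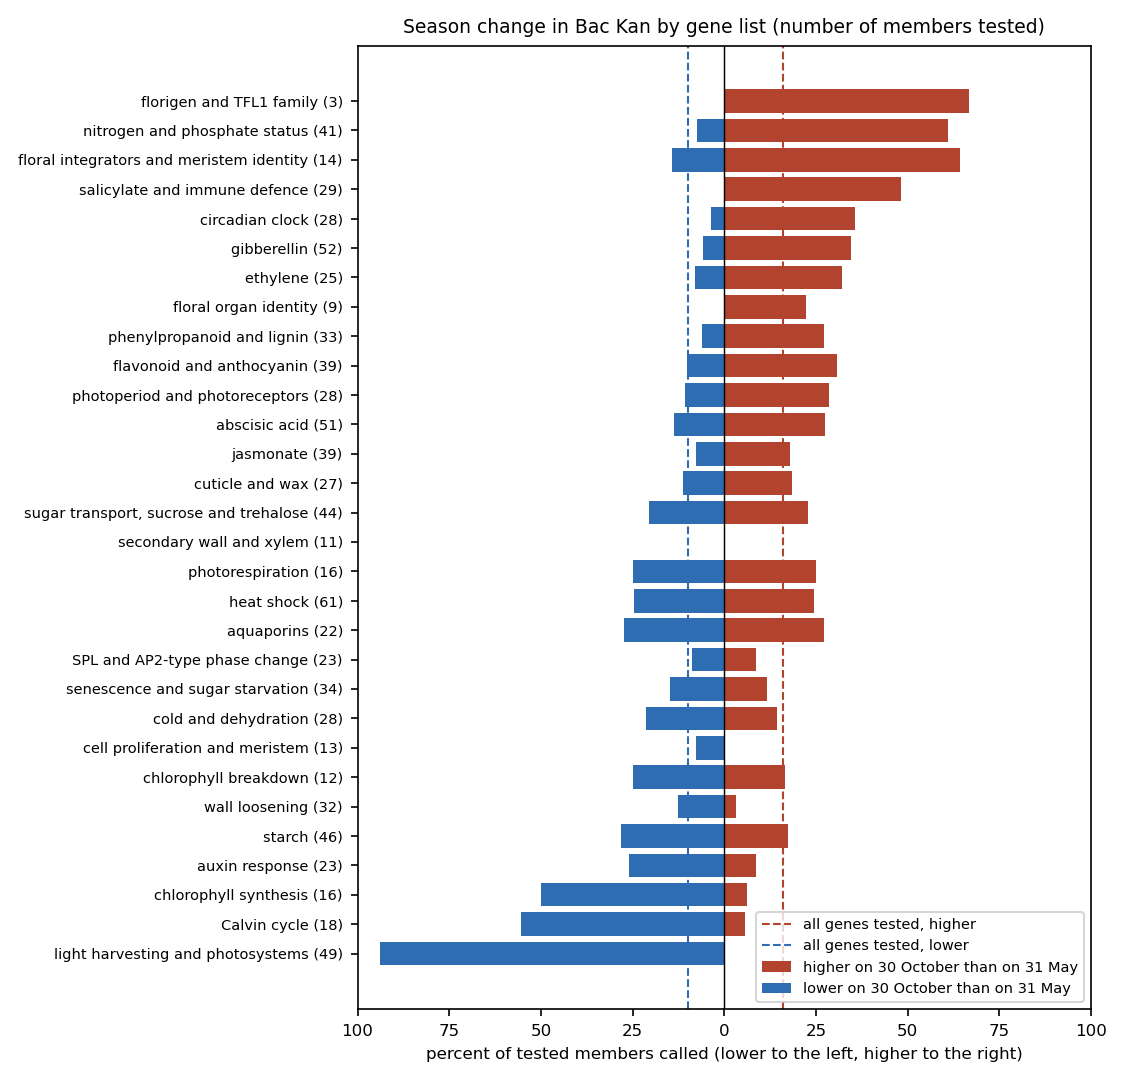
Percent of the tested members of each gene list that were called higher on 30 October than on 31 May (red, to the right) or lower (blue, to the left), with the number tested in parentheses. Dashed lines mark the share over all genes tested, 16.1% higher and 9.8% lower. Light harvesting and photosystem genes reach far to the left, and nitrogen and phosphate, integrator and immune lists far to the right.

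Part of the flowering genes of the leaf were higher at the end of the season, by the counts that follow. Of the florigen family, 3 members passed the filter on low values and 2 rose, while the homologues of TFL1, ATC and MFT stayed below it. FT (MANES_13G000800) had levels of 9.10, 2.47, 4.28 and 7.77 on 30 October, against 0, 0, 0 and 0 on 31 May (adjusted p = 0.0024), so it was listed at 0 in every library of 31 May and found in every library of 30 October. The other copy, FT (MANES_12G001600), was listed at 0 on 31 May too, with 0 to 9.60 on 30 October, and was not called (adjusted p = 0.22). BFT (MANES_14G027800), a relative of FT that acts against flowering, had levels of 49.97, 46.2, 28.1 and 23.59 on 30 October, against 0.519, 0, 2.83 and 0 on 31 May (log2 change 4.54 ± 0.46, adjusted p = 7.6e-10). FT was highest before the end: the mean of MANES_13G000800 was 18.04 on 11 September, 8.61 on 5 October and 5.90 on 30 October, and that of BFT was 63.4, 45.7 and 37.0. In Hanoi, FT MANES_13G000800 stood at 0 to 1.21 on 10 October and was listed at 0 on 24 May, FT MANES_12G001600 was listed at 0 on all 4 dates, and BFT averaged 183 on 10 October.

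Among floral integrators and meristem identity genes, 9 of 14 tested members rose and 2 fell, with a median of 0.57, against 0.10 over all genes. Wide changes were in FUL homologues, MADS factors that promote the floral state and also act in leaves and fruit. FUL (MANES_14G088500) had levels of 316, 373, 352 and 317 on 30 October, against 5.44, 5.19, 19.0 and 22.02 on 31 May (log2 change 4.87 ± 0.67, adjusted p = 4.3e-07). FUL (MANES_06G081800) had levels of 197, 184, 127 and 102 on 30 October, against 0.394, 3.18, 9.35 and 16.7 on 31 May (log2 change 4.70 ± 0.45, adjusted p = 1.7e-10). The third copy, FUL (MANES_02G059300), rose as well (log2 change 0.86 ± 0.24, adjusted p = 0.0063). In each of these the dates did not overlap.

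SOC1 (MANES_05G041900), an integrator of flowering signals, had levels of 122, 128, 153 and 148 on 30 October, against 40.5, 34.2, 46.5 and 39.7 on 31 May (log2 change 1.75 ± 0.22, adjusted p = 5.6e-08). That call was lost when only the most abundant transcript of the gene was used, with a change of -1.52. A second copy, SOC1 (MANES_01G263500), also rose (log2 change 1.02 ± 0.30, adjusted p = 0.0092), as did AP1 (MANES_01G103200), a meristem identity gene, at 5.94 ± 2.77 on 30 October and 1.42 ± 0.976 on 31 May (log2 change 1.53 ± 0.49, adjusted p = 0.017, lost without 30 October library 1 or 31 May library 3 at adjusted p = 0.065 to 0.078), and AGL19 (MANES_02G030100), a MADS factor of the SOC1 group (log2 change 0.55 ± 0.18, adjusted p = 0.023, lost without 30 October libraries 3 or 4 or 31 May library 3 at adjusted p = 0.057 to 0.12). SVP homologues, known in Arabidopsis as repressors of FT, did not move together. SVP (MANES_07G038600, 0.59, adjusted p = 0.0041) and SVP (MANES_10G099000, 0.45, adjusted p = 0.026, lost without 30 October library 1 or 31 May libraries 2 or 3 at adjusted p = 0.085 to 0.14) rose, SVP (MANES_12G126800) fell (log2 change -0.83 ± 0.28, adjusted p = 0.023, lost without 30 October library 3 or 31 May library 3 at adjusted p = 0.081 to 0.14). SVP (MANES_18G059200) and SVP (MANES_02G145300) were not called, with log2 changes of -0.00 and -0.16. The 2 members that fell were SVP MANES_12G126800 and AGL42 (MANES_06G141600), a relative of SOC1 (log2 change -1.91 ± 0.64, adjusted p = 0.023, lost without 30 October libraries 3 or 4 or 31 May libraries 2 or 3 at adjusted p = 0.061 to 0.11). The lower count was 0 without 30 October library 3 or 31 May library 3, and 1 without 30 October library 4 or 31 May library 2.

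**Figure D3:**
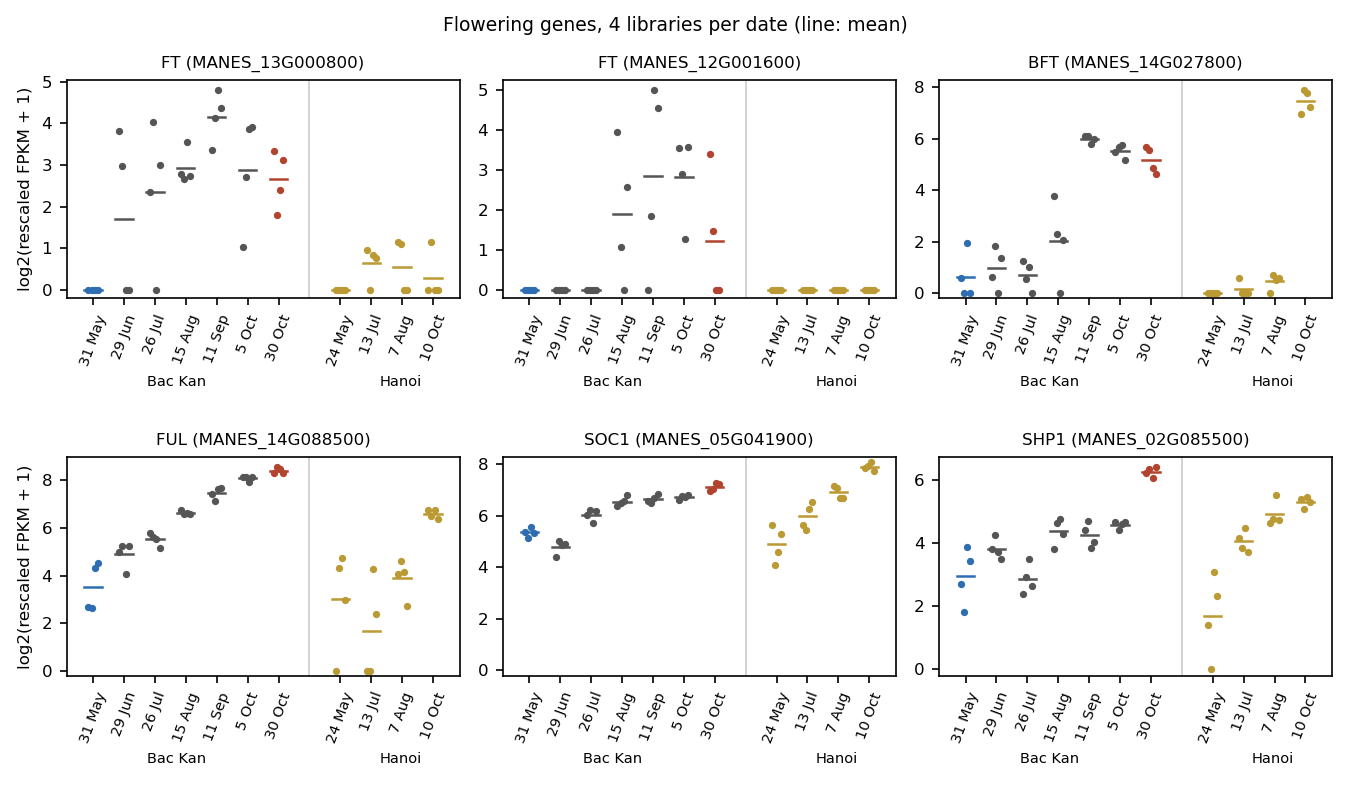
Levels of 6 flowering genes, as log2(rescaled FPKM + 1), over the 7 Bac Kan dates and the 4 Hanoi dates, with 1 point per library and a line at the mean, 31 May in blue and 30 October in red. FUL MANES_14G088500 climbed at each date in Bac Kan, while both FT homologues were highest on 11 September and SHP1 was highest on 30 October.

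Of 9 floral organ identity genes tested, limma called 2 higher and 0 lower (0 also at an unadjusted p under 0.05). The share of 22.2% higher lies near the 16.1% over all genes. SHP1 (MANES_02G085500), which acts in ovules and fruit, had levels of 73.1, 80.4, 66.1 and 83.9 on 30 October, against 5.58, 2.54, 13.7 and 9.87 on 31 May (log2 change 3.29 ± 0.39, adjusted p = 2.0e-08), all 4 libraries of 30 October lying above 31 May. UFO (MANES_11G053400), an F-box gene that acts with LFY, had levels of 26.5, 5.84, 9.29 and 4.82 on 30 October, against 0.733, 1.63, 2.86 and 5.59 on 31 May (log2 change 1.65 ± 0.55, adjusted p = 0.023, lost without 30 October library 1 or 31 May libraries 1 or 2 at adjusted p = 0.062 to 0.13), and its dates overlapped. Without one of those libraries 1 member of the list was left. The petal and stamen gene AP3 (MANES_05G153000) averaged 23.3 ± 17.97 on 30 October and 18.5 ± 8.63 on 31 May and the carpel gene AG (MANES_17G062000) averaged 1.87 ± 1.07 on 30 October and 2.05 ± 1.17 on 31 May, neither of them called (adjusted p = 0.94 for both), and SEP3 homologues were below the filter. Of these, 1 reached 10.9 in a library of 30 October and was listed at 0 on 31 May.

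Genes of the photoperiod pathway and the clock tell the leaf the length and hour of the day. In the photoperiod list 8 of 28 members rose and 3 fell (median 0.39, and 8 and 5 under median-ratio scaling). GI (MANES_18G095000), which with FKF1 removes repressors of CO, had levels of 125, 117, 124 and 136 on 30 October, against 58.6, 48.1, 64.6 and 71.2 on 31 May (log2 change 1.05 ± 0.18, adjusted p = 1.8e-05). With its most abundant transcript alone the change was -0.70 and not called. FKF1 (MANES_15G134900) and CO (MANES_01G024100) were not called (log2 changes -0.17 and 0.25). CDF factors, which repress CO and FT, split: CDF2 (MANES_05G103100) fell, with levels of 5.12, 9.20, 14.4 and 11.5 on 30 October, against 30.2, 45.4, 43.7 and 46.4 on 31 May (log2 change -1.998 ± 0.24, adjusted p = 2.0e-08). CDF2 (MANES_01G035000) was listed at 0 in all libraries of 31 May and stood at 2.40 to 6.31 on 30 October (adjusted p = 3.4e-09). COL4 (MANES_03G006000), a CONSTANS-like factor, fell (log2 change -1.51 ± 0.14, adjusted p = 1.8e-10), and the third member that fell was CIB1 (MANES_11G086600), a partner of cryptochrome (log2 change -0.61 ± 0.23, adjusted p = 0.049, lost without 30 October libraries 1, 2 or 3 or 31 May libraries 3 or 4 at adjusted p = 0.061 to 0.34). SPA1 (MANES_01G248600), which takes part in the breakdown of CO in darkness, rose (log2 change 1.35 ± 0.16, adjusted p = 3.4e-08).

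In the clock list 10 of 28 members rose and 1 fell (median 0.48). Morning genes were among the rises. LHY (MANES_01G239000) had levels of 70.1, 67.0, 67.0 and 98.8 on 30 October, against 9.00, 5.17, 7.09 and 7.46 on 31 May (log2 change 3.23 ± 0.28, adjusted p = 1.7e-11), though its call was lost with the most abundant transcript alone. The second copy, LHY (MANES_05G015600), had levels of 145, 145, 128 and 181 on 30 October, against 46.9, 32.3, 54.9 and 47.3 on 31 May (log2 change 1.72 ± 0.24, adjusted p = 5.2e-07), and RVE1 MANES_02G080700 had levels of 27.2, 24.2, 33.1 and 37.6 on 30 October, against 0.910, 0.695, 0.851 and 1.04 on 31 May (log2 change 4.06 ± 0.38, adjusted p = 8.6e-11). Of the evening genes, TOC1 (MANES_14G081500) rose (log2 change 0.88 ± 0.24, adjusted p = 0.0059), TOC1 (MANES_06G089800) was not called (log2 change 0.65 ± 0.27, adjusted p = 0.076). ELF3 (MANES_04G136600), part of the evening complex, was the member that fell (log2 change -0.90 ± 0.24, adjusted p = 0.0036). LNK1 (MANES_06G010600), which acts with the morning factors, rose (log2 change 0.97 ± 0.17, adjusted p = 2.1e-05). Because these genes cycle daily and the hour of sampling was not given, hour and season cannot be told apart for them.

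The broadest fall was in the genes of light harvesting and the photosystems, where limma called 46 of 49 tested members lower and 0 higher (0 also at an unadjusted p under 0.05), with a median of -1.34 (-1.505 under median-ratio scaling). In bulk leaves fewer cells of a type and less RNA per cell cannot be told apart. Summed over the list, levels were 27177 to 28419.8 on 30 October and 65272 to 82743 on 31 May (exact permutation test, two-sided, p = 0.0286), a ratio of 0.394, and the list took 2.78% of the total on 30 October and 7.06% on 31 May. The 3 members not called were PSBX (MANES_16G084500), PSAG (MANES_01G006400) and PETC (MANES_14G016000), with log2 changes of -0.82, -0.34 and 0.12.

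**Figure D4:**
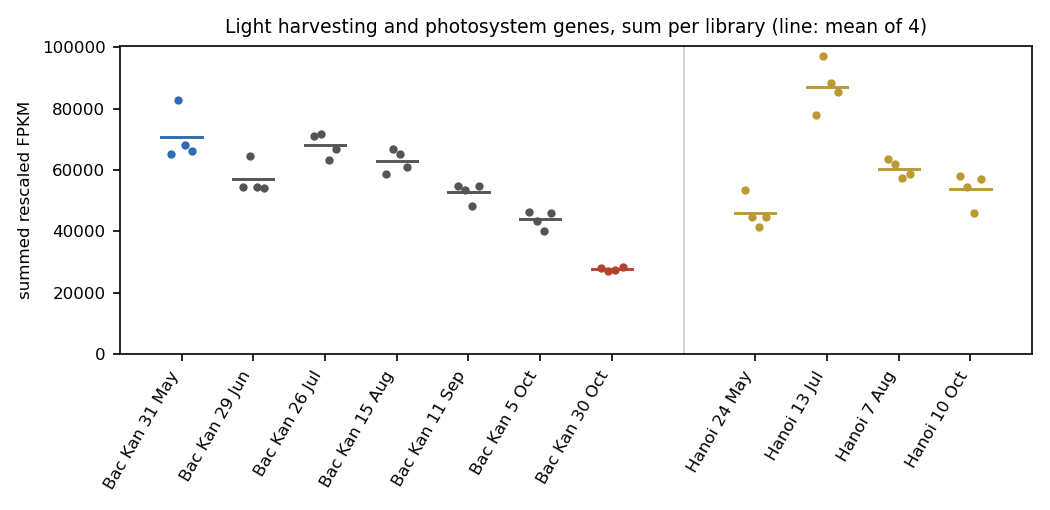
Summed rescaled FPKM of the light harvesting and photosystem genes in each library, by date, with a line at the mean of 4. The 4 libraries of 30 October (red) lie at 27177 to 28419.8, below all other libraries of both sites, and those of 31 May (blue) lie at 65272 to 82743.

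Genes of the antenna and of the photosystem cores both fell. PSBR (MANES_03G082900) had levels of 66.8, 72.1, 48.1 and 62.4 on 30 October, against 745, 1792, 935 and 922 on 31 May (log2 change -4.05 ± 0.20, adjusted p = 5.5e-18). LHCB4.2 (MANES_08G091700), a minor antenna protein of photosystem II, had levels of 152, 81.3, 103 and 96.5 on 30 October, against 892, 1329, 948 and 904 on 31 May (log2 change -3.24 ± 0.17, adjusted p = 2.0e-17). LHCA4 (MANES_06G091400), an antenna protein of photosystem I, had levels of 262, 311, 334 and 398 on 30 October, against 1724, 1806, 1823 and 1676 on 31 May (log2 change -2.44 ± 0.13, adjusted p = 2.0e-17). None of these overlapped between dates. LHCA1 (MANES_07G104600), also of the photosystem I antenna, fell as well (log2 change -2.17 ± 0.12, adjusted p = 1.8e-16). Of the 46 members, 6 passed the midpoint between the end dates for good on 11 September, 22 on 5 October and 18 on 30 October. These are 13.0%, 47.8% and 39.1%, against 7.41%, 31.1% and 38.6% of all 2294 lower genes, so late passage was not particular to the list. Counted at the first date past the midpoint, there were 6, 19 and 15 members of the list on those dates and 6 on earlier ones.

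The Calvin cycle, which fixes carbon, moved the same way, with 10 of 18 members lower and 1 higher. GAPB (MANES_05G125200), a subunit of glyceraldehyde phosphate dehydrogenase, averaged 720.4 ± 46.1 on 30 October and 1903 ± 202 on 31 May (log2 change -1.40 ± 0.16, adjusted p = 1.9e-08), and its other copy GAPB (MANES_18G003300) also fell (log2 change -0.87 ± 0.12, adjusted p = 6.8e-07). PRK (MANES_15G185100), phosphoribulokinase, fell (log2 change -1.11 ± 0.12, adjusted p = 1.7e-09), and so did RBCS3B MANES_01G011500 (log2 change -0.88 ± 0.14, adjusted p = 6.1e-06). The member that rose was RCA (MANES_10G027600), Rubisco activase, which frees Rubisco of bound sugar phosphates, with levels of 3191, 3487, 3376 and 3627 on 30 October, against 1518, 1517, 1338 and 1330.1 on 31 May (log2 change 1.26 ± 0.21, adjusted p = 1.4e-05). Without 31 May library 2 there were 2 higher members.

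Chlorophyll synthesis showed 8 of 16 members lower and 1 higher (0 higher under median-ratio scaling and on the FPKM as deposited), and chlorophyll breakdown 3 of 12 lower and 2 higher. PORA (MANES_03G113300), a light-dependent step of chlorophyll synthesis, had levels of 18.5, 13.6, 12.1 and 8.28 on 30 October, against 54.5, 147, 112 and 107 on 31 May (log2 change -2.87 ± 0.26, adjusted p = 6.1e-11). GUN4 (MANES_11G120400), a cofactor of magnesium chelatase, averaged 262 ± 56.2 on 30 October and 932 ± 225 on 31 May (log2 change -1.83 ± 0.23, adjusted p = 9.3e-08). CHLM (MANES_06G126400), a methyltransferase of the pathway, and PORC (MANES_13G148200), another light-dependent reductase, fell too (log2 changes -1.62 and -1.81). The member that rose was CAO (MANES_02G163700), which makes chlorophyll b (log2 change 0.52 ± 0.18, adjusted p = 0.03, lost without 30 October libraries 2 or 4 or 31 May libraries 1 or 3 at adjusted p = 0.07 to 0.13). In breakdown, NYE1 (MANES_02G030000), which opens chlorophyll degradation, had levels of 77.4, 105, 110.3 and 124 on 30 October, against 40.7, 28.2, 34.8 and 28.3 on 31 May (log2 change 1.62 ± 0.26, adjusted p = 7.4e-06). NYC1 (MANES_03G021500), a chlorophyll b reductase, rose (log2 change 0.65 ± 0.15, adjusted p = 0.0013). PAO (MANES_04G012500, -1.03, adjusted p = 5.5e-06), ACD2 (MANES_13G124600, -1.25, adjusted p = 0.0011) and PPH (MANES_06G024300, -0.66, adjusted p = 0.011), which act on the later products, fell.

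Photorespiration, which recovers the carbon lost when Rubisco takes oxygen, had 4 of 16 members higher and 4 lower. SHM1 (MANES_12G121800), mitochondrial serine hydroxymethyltransferase, had levels of 321, 261, 248 and 303 on 30 October, against 939, 964, 815 and 845 on 31 May (log2 change -1.65 ± 0.12, adjusted p = 1.8e-13). PGLP1 (MANES_13G001100), the first enzyme of the pathway, fell (log2 change -1.13 ± 0.10, adjusted p = 5.4e-11). Catalase homologues split, with CAT2 (MANES_02G113300) at 3049.7 ± 373 on 30 October and 1332 ± 265 on 31 May (log2 change 1.21 ± 0.16, adjusted p = 3.0e-07) and CAT2 (MANES_18G004500) and CAT2 (MANES_05G130500) lower (log2 changes -1.15 and -0.70). The other members that rose were GOX1 (MANES_15G123100, 0.66, adjusted p = 5.8e-05), AGT1 (MANES_02G141600, 0.67, adjusted p = 0.0019) and GLDP1 (MANES_16G080300, 0.51, adjusted p = 0.0081, lost without 30 October library 4 at adjusted p = 0.068), of the peroxisomal and mitochondrial steps.

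Starch genes moved in both directions, with 8 of 46 higher and 13 lower (median -0.42). Their summed level was 2251 to 2611 on 30 October and 2806 to 2946 on 31 May. BAM3 (MANES_15G171200), the main beta-amylase of leaf starch breakdown, had levels of 383, 427, 399.9 and 417 on 30 October, against 61.8, 48.9, 66.6 and 70.1 on 31 May (log2 change 2.71 ± 0.19, adjusted p = 5.0e-14). BAM1 (MANES_03G155800), a stress-responsive beta-amylase, rose (log2 change 2.33 ± 0.30, adjusted p = 1.6e-07). ADG1 (MANES_12G067900), the small subunit of the enzyme that supplies ADP-glucose for starch synthesis, had levels of 224, 142, 186 and 246 on 30 October, against 636, 595, 664 and 575 on 31 May (log2 change -1.65 ± 0.15, adjusted p = 4.8e-11). DPE2 (MANES_08G162200), which uses the maltose from starch in the cytosol, had levels of 40.0, 17.5, 30.0 and 28.2 on 30 October, against 138, 139, 152 and 139 on 31 May (log2 change -2.31 ± 0.18, adjusted p = 2.0e-12). The dates did not overlap in any of these 4 genes, and the beta-amylases went up while ADG1 and DPE2 went down.

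Among genes of sugar transport, sucrose and trehalose, 10 of 44 rose and 9 fell. Under median-ratio scaling, and on the FPKM as deposited, 7 rose and 11 fell. STP13 (MANES_15G027300), a hexose uptake carrier, had levels of 115, 195, 149.9 and 131 on 30 October, against 19.7, 9.72, 21.6 and 20.2 on 31 May (log2 change 3.01 ± 0.37, adjusted p = 5.9e-08). SPS4F (MANES_02G203000), a sucrose phosphate synthase, fell (log2 change -1.63 ± 0.19, adjusted p = 1.2e-08). GolS4 (MANES_13G029000), a galactinol synthase, and SWEET2 (MANES_03G078800), a vacuolar sugar carrier, rose (log2 changes 0.58 and 0.76).

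Genes that mark nitrogen and phosphate status mostly went up, with 25 of 41 members higher and 3 lower (median 0.91). Their summed level was 2538 to 2643 on 30 October and 1314 to 1473 on 31 May. PAP17 (MANES_14G173500), an acid phosphatase, had levels of 35.3, 36.0, 11.3 and 37.4 on 30 October, against 0.373, 0.659, 1.94 and 0.987 on 31 May (log2 change 3.88 ± 0.58, adjusted p = 2.3e-06). SQD2 (MANES_08G089200), which makes sulfolipid, had levels of 272, 356, 338 and 390.0 on 30 October, against 72.5, 65.9, 64.2 and 83.0 on 31 May (log2 change 2.23 ± 0.16, adjusted p = 1.7e-13). MGD2 (MANES_14G118100), which makes galactolipid when phosphate is short, had levels of 21.4, 26.3, 21.1 and 20.7 on 30 October, against 5.69, 3.78, 1.93 and 2.83 on 31 May (log2 change 2.42 ± 0.33, adjusted p = 4.9e-07). These 3 genes had no overlap between the dates. PHO2 (MANES_16G027500), which removes phosphate transporters, averaged 84.3 ± 15.5 on 30 October and 16.2 ± 4.66 on 31 May (log2 change 2.34 ± 0.22, adjusted p = 1.8e-10). PHO2 thus acts against phosphate uptake, and the list pools genes of opposite roles. Its count is no measure of phosphate status, which was not tested.

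On the nitrogen side, AMT1.1 (MANES_03G156400), an ammonium transporter, had levels of 286, 364, 298 and 365 on 30 October, against 87.6, 52.8, 52.9 and 45.7 on 31 May (log2 change 2.47 ± 0.24, adjusted p = 2.2e-10). The members that fell were SQD1 (MANES_03G048700, -1.04, adjusted p = 5.0e-05), an earlier step of sulfolipid synthesis, PHR1 (MANES_12G035600, -0.69, adjusted p = 0.034, lost without 30 October libraries 1, 3 or 4 or 31 May libraries 1, 2 or 4 at adjusted p = 0.054 to 0.1), the master factor of phosphate starvation, and GLU1 (MANES_09G005600, -0.31, adjusted p = 0.033, lost without 30 October libraries 1, 2 or 3 or 31 May libraries 1 or 3 at adjusted p = 0.058 to 0.11), a glutamate synthase. The lower count was 1 without 30 October library 1 or 3 or 31 May library 1. Of the 25 members that rose, 14 (56%) passed their midpoint for good on 30 October, against 40.8% of all higher genes. The first passage was spread, with 6 members on 29 June and 6 on 30 October.

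**Figure D5:**
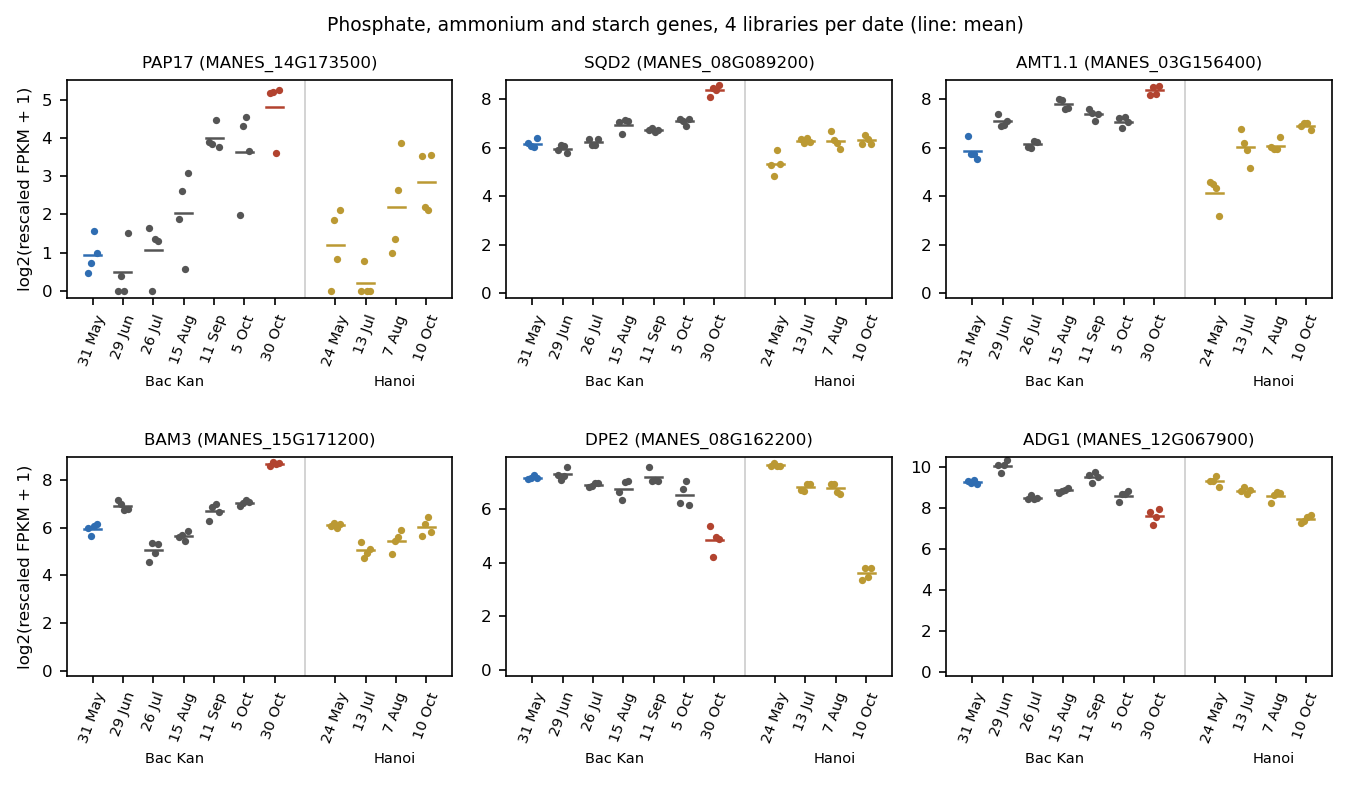
Levels of 6 phosphate, ammonium and starch genes, as log2(rescaled FPKM + 1), over the 7 Bac Kan dates and the 4 Hanoi dates, with 1 point per library and a line at the mean, 31 May in blue and 30 October in red. SQD2 and BAM3 stood highest, and DPE2 and ADG1 lowest among the Bac Kan dates, on 30 October.

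Gibberellin, a growth hormone that also acts in flowering, had 18 of 52 genes higher and 3 lower (median 0.00, and 15 and 5 under median-ratio scaling and on the FPKM as deposited). Genes of inactivation and early synthesis were among the rises. GA2ox8 (MANES_15G076100), which inactivates gibberellin, had levels of 64.5, 76.2, 68.3 and 62.2 on 30 October, against 14.4, 5.89, 5.47 and 7.90 on 31 May (log2 change 2.96 ± 0.37, adjusted p = 7.8e-08). KS (MANES_16G065800) and KS (MANES_16G065600), homologues of ent-kaurene synthase, an early step of synthesis, rose (log2 change 2.36 ± 0.26, adjusted p = 4.7e-09, and log2 change 2.37 ± 0.28, adjusted p = 1.8e-08). GA20ox1 (MANES_06G141200), which carries out a late step of synthesis, fell, with levels of 61.6, 57.4, 51.1 and 54.4 on 30 October, against 131, 179, 153 and 160.4 on 31 May (log2 change -1.45 ± 0.18, adjusted p = 3.9e-08). The other members that fell were GASA14 (MANES_17G119200), a gibberellin-responsive gene (log2 change -2.58 ± 0.51, adjusted p = 1.5e-04), and CYP714A1 (MANES_16G076900), an inactivating enzyme (log2 change -1.05 ± 0.27, adjusted p = 0.0032).

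Heat shock genes split, 15 of 61 higher and 15 lower. Small heat shock proteins, including HSP21, HSP22.0 and HSP17.6II above, were among those that fell, while constitutive chaperones of the HSP70 kind rose. HSC70-1 (MANES_07G114800) had levels of 1705, 2184, 1709 and 1799 on 30 October, against 621, 381, 352 and 391 on 31 May (log2 change 2.11 ± 0.19, adjusted p = 5.3e-11). HSC70-1 (MANES_02G171300) averaged 167 ± 31.3 on 30 October and 21.9 ± 6.57 on 31 May (log2 change 2.90 ± 0.28, adjusted p = 1.9e-10). BAG6 (MANES_01G250800), a co-chaperone, averaged 355 ± 35.3 on 30 October and 1288 ± 197 on 31 May (log2 change -1.85 ± 0.21, adjusted p = 9.9e-09). In a family of 65 genes grouped by description after values were seen, 22 small heat shock proteins fell and 4 rose. These are shares of 33.8% and 6.15%, against 9.8% lower and 16.1% higher over all genes. These genes were also high in Bac Kan on 5 October, when HSP17.6II averaged 520.1, against 36.5 on 30 October and 528 on 31 May, so their levels did not follow one course through the season.

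Cold and dehydration genes had 4 of 28 members higher and 6 lower, shares of 14.3% and 21.4%, against 16.1% and 9.8% over all genes. COR47 (MANES_05G140400), a dehydrin that protects cells as water is lost, had levels of 2162, 2391, 2340.0 and 2064 on 30 October, against 887, 621, 678 and 1002 on 31 May (log2 change 1.51 ± 0.16, adjusted p = 1.2e-09). ELIP1 (MANES_15G033100), a plastid protein induced by strong light, had levels of 3554, 2566, 2449.5 and 2019.7 on 30 October, against 868, 1971, 764 and 561 on 31 May (log2 change 1.48 ± 0.32, adjusted p = 4.9e-04). The others that rose were ICE1 (MANES_14G045600), a regulator of the cold response (log2 change 0.88 ± 0.24, adjusted p = 0.0052), and ERD7 (MANES_04G074700), a dehydration gene (log2 change 1.03 ± 0.26, adjusted p = 0.0021). Of those that fell, 5 were RD22 homologues, dehydration genes named RD22 (MANES_03G125200) and RD22 (MANES_03G125700) (log2 change -0.96 ± 0.20, adjusted p = 2.2e-04, and log2 change -1.16 ± 0.25, adjusted p = 4.2e-04), and RD22 (MANES_06G160600), RD22 (MANES_06G160100) and RD22 (MANES_03G065700) (log2 changes -1.76, -1.499 and -1.08). The call of MANES_03G125200 was lost with its most abundant transcript alone. The other was CBF4 (MANES_14G029600), a CBF factor (log2 change -3.03 ± 0.81, adjusted p = 0.0041).

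Phenylpropanoid and lignin genes had 9 of 33 members higher and 2 lower, and flavonoid and anthocyanin genes 12 of 39 higher and 4 lower. C4H (MANES_18G126900), the second enzyme of the pathway, had levels of 245, 301, 314 and 307 on 30 October, against 56.4, 58.8, 77.8 and 118 on 31 May (log2 change 1.95 ± 0.20, adjusted p = 7.6e-10). PAL2 (MANES_08G008400), the first enzyme, rose (log2 change 1.76 ± 0.27, adjusted p = 2.7e-06). Among those that fell was CCR1 (MANES_04G103200), of lignin synthesis (log2 change -2.33 ± 0.51, adjusted p = 5.8e-04). Among flavonoid genes, TT8 (MANES_01G208400), a bHLH activator, HY5 (MANES_16G120300), a light-response factor, F3'H (MANES_11G019200), a flavonoid hydroxylase, and UGT78D2 (MANES_08G163200), a flavonoid glucosyltransferase, rose by 1.84, 1.47, 1.37 and 1.23. Those that fell were the reductases DFR (MANES_05G157100, -2.88, adjusted p = 0.0014) and DFR (MANES_05G157000, -0.98, adjusted p = 0.0027), the MYB factor MYB4 (MANES_11G094800, -1.62, adjusted p = 0.048, lost without 30 October libraries 1, 2 or 4 or 31 May libraries 1, 3 or 4 at adjusted p = 0.059 to 0.18) and the bHLH factor GL3 (MANES_02G019400, -1.29, adjusted p = 0.0045).

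Salicylate and immune genes had 14 of 29 members higher and 0 lower in limma, 0 also at an unadjusted p under 0.05 (median 0.61). WRKY40 (MANES_03G009500), a WRKY factor of the defence response, had levels of 29.9, 17.5, 17.03 and 26.3 on 30 October, against 8.39, 6.61, 2.80 and 2.67 on 31 May (log2 change 2.04 ± 0.43, adjusted p = 3.2e-04). A further copy, WRKY40 (MANES_03G009300), was listed at 0 on 31 May and stood at 2.71 to 11.8 on 30 October (adjusted p = 3.7e-05). MPK3 (MANES_04G026700), a MAP kinase of immune signalling, had levels of 26.2, 35.0, 24.3 and 21.9 on 30 October, against 15.3, 7.78, 6.92 and 9.79 on 31 May (log2 change 1.39 ± 0.24, adjusted p = 1.9e-05). NPR3 (MANES_16G050900), a salicylate receptor, rose (log2 change 1.23 ± 0.24, adjusted p = 1.3e-04). Over all 79 WRKY factors tested, 29 were higher and 2 lower (36.7% and 2.53%, against 16.1% and 9.8% over all genes).

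Jasmonate genes had 7 of 39 members higher and 3 lower, shares of 17.9% and 7.69% that lie near the 16.1% and 9.8% over all genes. LOX2 (MANES_10G148800), the lipoxygenase that opens jasmonate synthesis, had levels of 212, 248, 209.9 and 228 on 30 October, against 62.4, 61.6, 42.1 and 51.3 on 31 May (log2 change 2.04 ± 0.20, adjusted p = 2.1e-10). JAZ3 (MANES_15G133000) and JAZ12 (MANES_03G055200), repressors of the response, and CYP94B3 (MANES_01G200000), which inactivates the hormone, rose (log2 changes 1.89, 1.57 and 1.36). Those that fell were AOS (MANES_18G031800, -1.24, adjusted p = 0.0043) and AOC3 (MANES_01G108000, -0.95, adjusted p = 4.0e-04), later enzymes of synthesis, and JAZ12 (MANES_16G088300, -0.72, adjusted p = 0.021, lost without 30 October library 4 or 31 May libraries 2 or 4 at adjusted p = 0.069 to 0.11), another repressor.

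Abscisic acid genes had 14 of 51 members higher and 7 lower, but 10 and 10 under median-ratio scaling, 11 and 9 on the FPKM as deposited, and 7 and 7 when only these dates were fitted. CCD4 (MANES_15G183500), which cleaves carotenoids, had levels of 88.6, 98.1, 79.4 and 105 on 30 October, against 559, 846, 728 and 620.0 on 31 May (log2 change -2.87 ± 0.15, adjusted p = 2.6e-17). OST1 (MANES_15G143700), a kinase of the abscisic acid response, and ABA2 (MANES_04G164700), an enzyme of its synthesis, fell (log2 change -2.14 ± 0.17, adjusted p = 2.9e-12, and log2 change -1.43 ± 0.14, adjusted p = 1.9e-10). CYP707A2 (MANES_01G170900), which breaks the hormone down, rose (log2 change 1.74 ± 0.18, adjusted p = 1.8e-09). The higher count was 9 without 30 October library 4 or 31 May library 4, and the lower count 4 without 31 May library 2.

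Ethylene genes had 8 of 25 members higher and 2 lower. ACO4 (MANES_13G065800), which carries out the last step of ethylene synthesis, had levels of 2381, 2569, 2717 and 2195 on 30 October, against 1072, 685, 907 and 927 on 31 May (log2 change 1.47 ± 0.14, adjusted p = 7.5e-11). ACO4 (MANES_12G069300), a further copy, rose (log2 change 1.498 ± 0.26, adjusted p = 2.5e-05). EIN2 (MANES_08G008200), the central signal carrier, rose (log2 change 0.94 ± 0.14, adjusted p = 1.3e-06), a call lost with the most abundant transcript alone. The 2 that fell were ACO4 (MANES_16G002300), a further copy of the synthesis gene, and CTR1 (MANES_S041300), a kinase that holds the response back (log2 changes -1.05 and -1.47).

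Auxin response genes had 2 of 23 members higher and 6 lower (1 and 7 under median-ratio scaling and on the FPKM as deposited). IAA14 (MANES_05G084300) averaged 75.9 ± 19.0 on 30 October and 226 ± 48.3 on 31 May (log2 change -1.58 ± 0.23, adjusted p = 1.3e-06), and IAA4 (MANES_03G169800) and IAA9 (MANES_05G187100) fell too (log2 changes -2.41 and -0.73), all of them Aux/IAA repressors of auxin signalling. The members that rose were IAA16 (MANES_04G120800) (log2 change 2.004 ± 0.38, adjusted p = 8.7e-05) and IAA16 (MANES_08G135000) (log2 change 0.53 ± 0.20, adjusted p = 0.046, lost without 30 October libraries 2, 3 or 4 or 31 May libraries 2, 3 or 4 at adjusted p = 0.074 to 0.15). The higher count was 1 without 30 October library 2, 3 or 4 or 31 May library 2, 3 or 4. In the wider Aux/IAA family, 36 genes grouped by description after values were seen, 7 rose and 7 fell. These are shares of 19.4% each, against 16.1% higher and 9.8% lower over all genes, so the family had no common direction.

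Aquaporins, the water channels of the membrane, had 6 of 22 members higher and 6 lower. PIP2;2 (MANES_09G068800) had levels of 93.9, 141, 81.8 and 129 on 30 October, against 15.74, 9.71, 10.0 and 2.73 on 31 May (log2 change 3.57 ± 0.47, adjusted p = 2.4e-07). PIP2;2 (MANES_08G006800) rose likewise (log2 change 3.18 ± 0.44, adjusted p = 5.1e-07). PIP2;7 (MANES_11G096600) had levels of 6.28, 8.78, 7.10 and 6.85 on 30 October, against 26.4, 48.5, 49.4 and 50.4 on 31 May (log2 change -2.40 ± 0.28, adjusted p = 1.6e-08), and PIP1;4 (MANES_02G020100) fell (log2 change -1.56 ± 0.19, adjusted p = 3.4e-08). Members of one subgroup, the plasma membrane channels, thus moved both ways without overlap between the dates.

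Cuticle and wax genes had 5 of 27 members higher and 3 lower, shares of 18.5% and 11.1% near those over all genes (4 and 4 members under median-ratio scaling, and 3 higher when only these dates or only Bac Kan were fitted). ABCG11 (MANES_07G034500) and ABCG11 (MANES_12G131400), exporters of wax, rose (log2 changes 1.67 and 0.88), as did MYB96 (MANES_14G077700), a factor that turns on wax synthesis, at 22.1 to 39.5 on 30 October and 8.38 to 13.6 on 31 May. Also higher were FDH (MANES_16G087600, 0.90, adjusted p = 0.047, lost without 30 October libraries 2, 3 or 4 or 31 May libraries 1 or 2 at adjusted p = 0.055 to 0.47) and FDH (MANES_02G225200, 1.13, adjusted p = 0.024, lost without 30 October libraries 3 or 4 or 31 May library 3 at adjusted p = 0.077 to 0.16), of cuticle lipid synthesis. CER1 (MANES_01G274900), which makes wax alkanes, had levels of 0, 0, 0 and 2.02 on 30 October, against 2.53, 36.3, 7.23 and 6.84 on 31 May (log2 change -2.86 ± 0.84, adjusted p = 0.0089, lost without 31 May library 2 at adjusted p = 0.065), and the exporters ABCG11 (MANES_07G034600, -1.06, adjusted p = 0.012, lost without 31 May libraries 1 or 4 at adjusted p = 0.052 to 0.078) and ABCG11 (MANES_02G118000, -0.91, adjusted p = 0.049, lost without 30 October libraries 1, 2 or 3 or 31 May libraries 1, 3 or 4 at adjusted p = 0.056 to 0.15) fell. The higher count was 3 without 30 October library 4, and the lower count 1 without 31 May library 1.

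Senescence and sugar starvation genes, which mark an ageing leaf, had 4 of 34 members higher and 5 lower, 26.5% called in all, near the 25.9% over all genes. SRG1 (MANES_15G078000), an oxidase gene, had levels of 86.2, 90.5, 108 and 97.8 on 30 October, against 13.6, 15.9, 18.05 and 13.0 on 31 May (log2 change 2.59 ± 0.38, adjusted p = 1.3e-06). WRKY6 (MANES_17G029000), listed at 0 on 31 May, stood at 0.571 to 6.87 on 30 October (adjusted p = 1.4e-04). The others that rose were WRKY6 (MANES_16G004100, 0.91, adjusted p = 0.014, lost without 31 May library 2 at adjusted p = 0.073) and JUB1 (MANES_02G089000, 1.84, adjusted p = 0.0072), regulators of leaf ageing. The textbook senescence protease SAG12 (MANES_15G123400) was listed at 0 in all 4 libraries of 30 October, against 0.329 to 4.61 on 31 May (adjusted p = 0.012, lost without 31 May library 3 at adjusted p = 0.058). SEN1 (MANES_01G151800, -1.59, adjusted p = 0.0057, lost without 31 May library 2 at adjusted p = 0.067), DIN2 (MANES_07G027700, -1.99, adjusted p = 2.9e-05), SRG1 (MANES_17G063200, -1.89, adjusted p = 0.021, lost without 30 October libraries 3 or 4 or 31 May library 4 at adjusted p = 0.058 to 0.097) and SRG1 (MANES_17G063800, -1.45, adjusted p = 0.037, lost without 30 October libraries 1, 2 or 4 or 31 May libraries 2 or 3 at adjusted p = 0.077 to 0.12) fell. The higher count was 7 without 31 May library 1, and the lower count 3 without 30 October library 4 or 31 May library 2 or 3.

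Phase change genes of the SPL and AP2 kind had 2 of 23 members higher and 2 lower. These are shares of 8.70% each, against 16.1% higher and 9.8% lower over all genes, so the list changed no more than genes in general. SPL4 (MANES_13G144400) had levels of 59.2, 82.3, 68.6 and 75.3 on 30 October, against 30.0, 29.4, 39.6 and 34.5 on 31 May (log2 change 1.07 ± 0.15, adjusted p = 9.1e-07). TOE1 (MANES_10G041100), a repressor of flowering, rose (log2 change 1.44 ± 0.44, adjusted p = 0.012, lost without 31 May library 2 at adjusted p = 0.066). SPL5 (MANES_03G106900) had levels of 10.8, 5.74, 20.4 and 4.65 on 30 October, against 43.7, 30.3, 44.1 and 43.7 on 31 May (log2 change -2.05 ± 0.35, adjusted p = 2.1e-05). SPL3 (MANES_17G047500) fell (log2 change -0.87 ± 0.30, adjusted p = 0.029, lost without 30 October libraries 1 or 3 or 31 May libraries 1 or 4 at adjusted p = 0.067 to 0.1). Without 30 October library 1 or 3 the counts were 4 higher and 1 lower. The higher count was 1 without 31 May library 2, and the lower count 1 without 31 May library 4.

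Wall-loosening genes, which let cells grow, had 1 of 32 members higher and 4 lower, and 0 of either when only these dates were fitted. The share called, 15.6%, lies below the 25.9% over all genes. The copies XTH23 (MANES_14G145800, -2.01, adjusted p = 0.017, lost without 31 May libraries 1 or 2 at adjusted p = 0.076 to 0.12), XTH23 (MANES_14G145700, -1.84, adjusted p = 0.015, lost without 31 May library 1 at adjusted p = 0.1) and XTH23 (MANES_S055900, -1.49, adjusted p = 0.042, lost without 30 October libraries 1, 3 or 4 or 31 May libraries 1, 2 or 4 at adjusted p = 0.065 to 0.17) fell. The fourth was EXPA4 (MANES_07G117200), listed at 0 in all libraries of 30 October (adjusted p = 0.028, lost without 30 October libraries 2, 3 or 4 or 31 May libraries 1 or 3 at adjusted p = 0.051 to 0.22). EXPA1 (MANES_06G091300), listed at 0 in all libraries of 31 May, rose (adjusted p = 0.023, lost without 30 October libraries 1 or 2 at adjusted p = 0.077 to 0.26). The lower count was 0 without 31 May library 1 and 2 without 30 October library 3 or 31 May library 2, and the higher count was 0 without 30 October library 1 and 2 without 30 October library 4. Of 13 proliferation genes 1 fell, GIF1 (MANES_08G136900), a growth co-activator (log2 change -1.84 ± 0.60, adjusted p = 0.02, lost without 30 October library 3 or 31 May libraries 3 or 4 at adjusted p = 0.051 to 0.094). Without 30 October library 4 there were 2. Of the 11 secondary wall genes limma called 0, and 0 also had an unadjusted p under 0.05.

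Families grouped by description after values were seen are given as counts. Over all genes the shares were 16.1% higher and 9.8% lower. Of 56 NAC factors 14 rose and 4 fell (25% and 7.14%), and of 83 MYB factors 15 rose and 5 fell (18.1% and 6.02%). Of 31 tau glutathione transferases 10 rose and 2 fell (32.3% and 6.45%). Of 352 ribosomal proteins 66 rose and 29 fell, shares of 18.8% and 8.24%. The shares of MYB factors and ribosomal proteins lie near those over all genes. Of 50 histones 3 rose and 8 fell (6% and 16%), and of 199 cytochromes P450 48 rose and 25 fell (24.1% and 12.6%).

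The date of the change over the season depended on how it was counted. Of the 3766 genes that were higher on 30 October, the date from which they stayed past the midpoint between the end dates was 29 June for 180, 26 July for 49, 15 August for 452, 11 September for 465, 5 October for 1083 and 30 October for 1537. The date at which they first passed it was 29 June for 1131, 26 July for 229, 15 August for 706, 11 September for 420, 5 October for 575 and 30 October for 705. Of the 2294 lower genes, 239 stayed past it from 29 June, 713 from 5 October and 886 only on 30 October, while 785 first passed it on 29 June and 354 on 30 October. Only 37 of the 6060 called genes moved in the direction of the season at each of the 6 steps, 22 higher and 15 lower. FUL MANES_14G088500 was one of these, with means of 12.9, 30.3, 45.6, 99.3, 178, 273 and 339.7 from 31 May to 30 October. The midpoint is set by the end dates themselves, and on 30 October every called gene is past it by construction, so these counts are a description and not a test.

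The season in Bac Kan was then set against that in Hanoi, 10 October against 24 May, 139 days. The first dates of the sites lay 7 days apart and the last 20 days. The change in Bac Kan minus that in Hanoi was called for 6738 genes (28.8%), more positive in Bac Kan for 3219 (13.8%) and more negative for 3519 (15%). In Hanoi itself 9952 genes (42.5%) changed, 5924 (25.3%) of them higher on 10 October and 4028 (17.2%) lower. Of the 6060 genes called in Bac Kan, 2899 (47.8%) also differed from Hanoi. Among all dates, correlations within a date were lowest for 24 May in Hanoi (median correlation 0.874), and with 13 July in their place 4071 genes differed, and with 29 June and 13 July as the first dates 3165. What sets 24 May apart was not tested.

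From the first date to the last, the photosystem list moved one way in Bac Kan and both ways in Hanoi. In Hanoi 20 members rose and 12 fell. The summed level of the list in Hanoi averaged 46011 on the first date and 87166.5 on 13 July. It then averaged 60442 on the next date and 53908 on the last. By this sum, the list thus fell in Hanoi too after 13 July. Limma called 0 of its 49 members more positive in Bac Kan (0 also at an unadjusted p under 0.05) and 43 more negative, its Hanoi median being 0.18. With 5 October as the last Bac Kan date 31 remained more negative, with 13 July as the first Hanoi date 27 (2 more positive), and with 29 June and 13 July 20 (2 more positive). LHCA4 (MANES_06G091400) changed by 0.40 ± 0.13 in Hanoi, a difference of -2.84 ± 0.18, adjusted p = 1.6e-14. CCD4 MANES_15G183500 differed by -4.20 ± 0.22, adjusted p = 3.5e-17. These 2 were among the 6 genes with the smallest p of the difference, of those called in it with a symbol for the best hit. The others were EBF1, given next, FIS1A (MANES_09G007900), of organelle division, ATAB2 (MANES_10G140800), an RNA-binding protein, and UBL5 (MANES_08G007500), a ubiquitin-like protein. The differences of FIS1A, ATAB2 and UBL5 were -2.61, -2.60 and -2.19. EBF1 (MANES_14G133100), which turns over ethylene factors, was not called in Bac Kan (53.7 ± 7.04 on 30 October and 69.9 ± 28.7 on 31 May) and rose in Hanoi by 4.33 ± 0.21, a difference of -4.64 ± 0.29, adjusted p = 1.0e-14.

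Starch genes went the other way, with limma calling 26 of 46 more positive than in Hanoi and 0 more negative (2 at an unadjusted p under 0.05). In Hanoi itself 36 of them fell and 1 rose. BAM3 MANES_15G171200 differed by 2.79 ± 0.26, adjusted p = 1.7e-10, and DPE2 MANES_08G162200 by 1.71 ± 0.26, adjusted p = 2.5e-06. With 13 July as the first Hanoi date the counts were 15 and 1, and with 29 June and 13 July 14 and 3. Of heat shock genes 25 of 61 were more positive and 4 more negative, but 9 and 9 with 13 July. Immune genes had 9 of 29 more positive and 3 more negative, but 1 and 8 with 13 July. The counts for heat shock and immune genes thus change with the first Hanoi date.

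Part of the integrator and nutrient lists rose at both sites. The integrator list had a median of 0.57 in Bac Kan and 0.79 in Hanoi, with 8 members higher and 0 lower there. Limma called 0 members more positive (0 also at an unadjusted p under 0.05) and 4 more negative in Bac Kan. Among these 4, SOC1 MANES_05G041900 differed by -1.25 ± 0.31, adjusted p = 0.0018. BFT, of the florigen family and not of this list, differed by -2.93 ± 0.66, adjusted p = 6.6e-04. Both SOC1 MANES_05G041900 and BFT had risen more in Hanoi. With 29 June and 13 July as the first dates the difference of SOC1 was 0.39. FUL MANES_14G088500 and FT MANES_13G000800 were not called in the difference (1.27 ± 0.94, adjusted p = 0.34, and 2.38 ± 0.95, adjusted p = 0.055). The nitrogen and phosphate list had a median of 0.91 in Bac Kan and 0.65 in Hanoi, where 21 of its 41 members rose and 3 fell. The difference of PAP17 was 2.24 ± 0.83, adjusted p = 0.038 and that of SQD2 1.27 ± 0.23, adjusted p = 3.4e-05. With 5 October as the last Bac Kan date SQD2 differed by -0.03. Photoperiod genes had 4 of 28 more positive and 13 more negative in Bac Kan, where over all genes 13.8% were more positive and 15% more negative. CDF2 MANES_05G103100 differed by -4.34 ± 0.33, adjusted p = 1.3e-12 and COL4 MANES_03G006000 by -2.67 ± 0.20, adjusted p = 1.3e-12. Auxin genes had 2 of 23 more positive and 10 more negative, IAA14 MANES_05G084300 differing by -4.22 ± 0.33, adjusted p = 1.5e-12.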

How the data were processed

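RNA was measured in 44 leaf libraries, 4 per date and site, and 28 of them came from Bac Kan. Per the labels' protocols, total RNA was purified on columns, turned into cDNA and amplified by 14 cycles of PCR after adaptor ligation. Reads were processed with TopHat2, per the submitters' processing notes, which give no version. The quantifier, genome build and annotation release are not given in the sources used here. The authors deposited FPKM in 11 tables, 1 per site and date, each with 41491 transcripts of 34120 gene IDs, 5253 of them with several transcripts. The tables pair the IDs with Arabidopsis best hits, which give the gene names used here. Another 1 column matched no sample and was not used. Site and date came from the sample titles, since the characteristics gave another date for 40 of 44 samples and another site for 16. Read depth is unknown and no counts could be recovered from the deposited FPKM, so no interval for counting error is given. The spread between libraries within a date, pooled for each gene over the 11 groups of 4 libraries, sets the precision of the changes.

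From these files, FPKM were summed per gene ID, each library was rescaled to a total of 1000000, and 23405 genes with 1 or more in at least 4 libraries were kept. On log2(level + 1), which understates the change of low genes, a single limma fit (limma 3.58.1, R 4.3.3) with 11 groups and a trended prior variance gave the change between the dates, its difference from the change in Hanoi, and Benjamini-Hochberg adjusted p-values with a threshold of 0.05. Library measures were compared by two-sided exact permutation tests (scipy 1.17.1). The fit was tested on simulated data.

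The members and the gene lists were chosen with earlier results of these data known. Named genes were the 12 largest rises and the 12 largest falls, 1 per best hit, among called genes with a symbol for the best hit, separate dates and a mean of 5 or more on the higher date. Up to 4 called members of each list, smallest adjusted p first, and every tested homologue of FT, TSF, TFL1, BFT, SOC1, FUL, AP1, LFY, SVP, CO, GI, FKF1, LHY and TOC1 were named too. So were the 6 genes with the smallest p in the difference from Hanoi, among those called in it with a symbol for the best hit. A choice by adjusted p favours members whose dates do not overlap, so their separation is a description and adds no further support. Members named to account for a small count, and genes given as not called, were chosen after their values were seen, as were the families. An item that the naming rule covers is not reported here. Alternatives were other pseudocounts, filters, scalings, transcripts, groups in the fit, variance priors and end dates, and each library left out in turn.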

Additional observations from a re-analysis of the deposited data

Results flagged for a closer look

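In 39 of 402 groups of 4 looked at (each named gene and library measure on each date) 1 library stood apart from the other 3. Chance gives about 1 in 20 for normally distributed values, but these levels were not logged. Where the other 3 were listed at 0, any level in 1 library counts as apart. That was so for CER1, OXS3, ROF1, ABCG11 MANES_07G034600, CBF4 and SRG1 MANES_17G063800 on 30 October and MYB68 on 31 May. The count is thus no measure of odd libraries. On 30 October the library apart lay above the others at 3979 for RBCS3B, 139 for SEN1, 98.8 for LHY MANES_01G239000, 2.02 for CER1, 91.3 for PIP1;4, 1.88 for OXS3, 0.908 for ROF1 and 17.1 for BGLU40. On the same date the library apart lay above the others at 1.07 for ABCG11 MANES_07G034600, 17.2 for PHR1, 0.821 for CBF4, 26.3 for MGD2, 3.47 for AG and 0.867 for SRG1 MANES_17G063800. On 30 October the library apart lay below the others at 21.7 for SVP MANES_02G145300, 178 for GUN4, 11.3 for PAP17, 61.2 for PHO2 and 9.86 for GASA14. On 31 May the library apart lay above the others at 36.3 for CER1, 666 for AGT1, 95.3 for OXS3, 975 for LHCA1, 621 for HSC70-1 MANES_07G114800, 1329 for LHCB4.2, 152 for DPE2 and 1.21 for MYB68. On the same date the library apart lay above the others at 113 for EBF1, 1434 for GLDP1, 677 for HSP17.6II and 3.79 for LTP3. On 31 May the library apart lay below the others at 48.5 for AGL19, 55.9 for SWEET2, 30.3 for SPL5, 30.2 for CDF2 MANES_05G103100, 28.2 for EIN2, 26.4 for PIP2;7 and 9.72 for STP13. The summed level of light harvesting and photosystem genes lay above the others at 82743 in 1 library of 31 May.

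By limma's test of the difference itself, the change from the first date to the last was more positive in Bac Kan than in Hanoi for 41 of the named genes. The difference on the log2 scale was 6.63 for PIP2;2 MANES_09G068800, 4.95 for GA2ox8, 4.68 for SPL5, 4.55 for RD22 MANES_06G160100, 4.31 for BAM1, 3.71 for HSC70-1 MANES_02G171300, 3.49 for PIP2;2 MANES_08G006800, 3.44 for ERD7, 2.79 for BAM3 and 2.62 for ACO4 MANES_12G069300. It was 2.62 for AOC3, 2.58 for IAA16 MANES_04G120800, 2.51 for UFO, 2.41 for ELIP1, 2.40 for HSC70-1 MANES_07G114800, 2.30 for MGD2, 2.24 for PAP17, 2.14 for XTH23 MANES_14G145700, 2.03 for DIN2 and 2.02 for RD22 MANES_06G160600. Next it was 1.98 for WRKY40 MANES_03G009500, 1.88 for MPK3, 1.85 for HY5, 1.81 for RVE1, 1.71 for DPE2, 1.69 for COR47, 1.51 for TOC1 MANES_14G081500, 1.45 for CDF2 MANES_01G035000, 1.43 for ABCG11 MANES_07G034500 and 1.43 for AOS. Further on it was 1.39 for ICE1, 1.34 for BAG6, 1.29 for TOC1 MANES_06G089800, 1.27 for SQD2, 1.26 for C4H, 1.25 for ACO4 MANES_13G065800, 1.12 for IAA16 MANES_08G135000, 1.04 for GI, 1.01 for EIN2 and 1.005 for SPA1. It then was 0.97 for CYP707A2.

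By limma's test of the difference itself, the change from the first date to the last was more negative in Bac Kan than in Hanoi for 71 of the named genes. The difference on the log2 scale was -7.95 for MLP423, -5.70 for IAA4, -5.50 for OXS3, -5.36 for CCR1, -4.64 for EBF1, -4.53 for HSP22.0, -4.34 for CDF2 MANES_05G103100, -4.22 for IAA14, -4.20 for CCD4 and -3.77 for HSP21. It was -3.73 for TRX-M4, -3.70 for LHCB4.2, -3.28 for CHLM, -3.26 for GUN4, -3.14 for SEN1, -2.93 for BFT, -2.84 for LHCA4, -2.71 for PSBX, -2.71 for ABCG11 MANES_12G131400 and -2.68 for MYB4. Next it was -2.67 for LHCA1, -2.67 for COL4, -2.61 for FIS1A, -2.60 for ATAB2, -2.56 for DFR MANES_05G157100, -2.56 for PIP2;7, -2.41 for MYB96, -2.33 for PORA, -2.30 for ABCG11 MANES_02G118000 and -2.21 for CTR1. Further on it was -2.20 for MIOX1, -2.19 for UBL5, -2.13 for PAO, -2.11 for PSBR, -2.11 for FUL MANES_02G059300, -2.10 for GAPB MANES_05G125200, -2.07 for CYP714A1, -2.06 for RD22 MANES_03G125700, -2.05 for STP13 and -2.04 for LHY MANES_05G015600. It then was -1.95 for CAT2 MANES_18G004500, -1.89 for CO, -1.80 for AG, -1.66 for KS MANES_16G065800, -1.60 for SVP MANES_12G126800, -1.58 for TOE1, -1.39 for CAT2 MANES_05G130500, -1.38 for CIB1, -1.37 for KS MANES_16G065600 and -1.34 for ACD2. Below these it was -1.32 for IAA9, -1.32 for RCA, -1.29 for SQD1, -1.28 for RD22 MANES_03G065700, -1.26 for PRK, -1.25 for SOC1 MANES_05G041900, -1.20 for PHR1, -1.16 for SPL4, -1.10 for RD22 MANES_03G125200 and -1.10 for PGLP1. Closer to 0 it was -1.03 for CAO, -0.98 for PSAG, -0.96 for SPS4F, -0.94 for GAPB MANES_18G003300, -0.88 for AGT1, -0.81 for SVP MANES_18G059200, -0.81 for GOX1, -0.78 for GLU1, -0.75 for PIP1;4 and -0.51 for ABA2. Last it was -0.50 for GolS4. Of these 112 differences, 79 were called in the same direction with 13 July as the first Hanoi date, 57 with 29 June and 13 July as the first dates and 78 with 5 October as the last Bac Kan date.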

How the results depend on the processing

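The count of genes called between the dates was 4986 (only the 2 groups compared) to 6341 (only the 7 Bac Kan groups) under the other settings tried, and 5082 to 5742 with 1 library left out. For the difference from Hanoi it was 5654 to 7058 under the other settings, 6155 to 6845 with 1 library left out, and, in alternatives chosen after seeing the data, 4071 with 13 July as the first Hanoi date and 3165 with 29 June and 13 July as the first dates. The cause was not tested. Of 179 named genes called between the dates, 135 were called in the same direction under all alternatives run, 24 lost the call under 1 to 3 of them and 20 under 4 or more. The change between the dates took the other sign for 8 named genes. It was -0.0072 for AP3 and -0.011 for PETC with the FPKM as deposited; -0.042 for AP3 and -0.046 for PETC with median-ratio scaling; -1.52 for SOC1 MANES_05G041900, -0.44 for AP3 and -0.70 for GI with the most abundant transcript alone. With 1 library left out the change of genes that turned sign ran from -0.0027 to 0.54 for CO, -0.29 to 0.018 for SVP MANES_02G145300, -0.32 to 0.47 for AP3, -0.31 to 0.14 for AG and -0.076 to 0.11 for SVP MANES_18G059200, none of them called. The difference from Hanoi turned sign for 29 named genes. With 29 June and 13 July as the first dates it was 1.14 for PSAG, 0.26 for HSP21, 0.40 for ABCG11 MANES_02G118000, -2.10 for WRKY40 MANES_03G009500, 1.25 for RD22 MANES_03G065700, -2.001 for MPK3, -0.54 for IAA16 MANES_04G120800, 0.39 for SOC1 MANES_05G041900, -0.086 for COR47, -0.47 for RD22 MANES_06G160600, -0.063 for HSC70-1 MANES_07G114800, -0.19 for IAA16 MANES_08G135000, 2.04 for MIOX1, -0.40 for ACO4 MANES_12G069300, -0.30 for ACO4 MANES_13G065800, -5.15 for XTH23 MANES_14G145700, 0.20 for GOX1 and 0.080 for CYP714A1. With 13 July as the first Hanoi date it was 0.88 for PSAG, -0.22 for BAG6, -0.80 for WRKY40 MANES_03G009500, -1.22 for MPK3, -0.38 for RD22 MANES_06G160600, 0.10 for RCA, 0.095 for SPL4, -3.95 for XTH23 MANES_14G145700 and 0.0084 for GOX1. With 5 October as the last Bac Kan date it was -0.17 for CDF2 MANES_01G035000, -0.55 for RVE1, 0.15 for SPS4F, 0.34 for ABA2, -0.033 for SQD2, 1.55 for MIOX1, -0.15 for UFO and 0.030 for TRX-M4. With the most abundant transcript alone it was -0.38 for EIN2. When only the 2 groups compared were fitted, 0 floral integrators were lower, 1 floral organ gene was higher and 0 clock genes were lower. With the most abundant transcript alone 2 flavonoid genes were lower. No paired analysis was possible because the columns carry no replicate numbers. Read depth is unknown, so differences in genes of low level, such as FT, rest on 4 libraries per date and a spread pooled over the 11 groups.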
